A study of Homo sapiens with 15 samples.

Results

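The MAX network is a family of transcription factors, most of which compete for MAX as dimer partner. Here 10 of its genes were followed over 5 human neuroblastoma lines. The genes were taken from a list of symbols: MYC, MYCL, MAX, MXD1, MXD3, MXD4, MXI1, MNT, MGA and MLX. Every probe set that named only that gene was used. This gave 43 probe sets of the 45277 that named 1 gene, and 10 genes of the 18244 measured. MAX had 12 probe sets, MLX 6, MXD4 and MXI1 5 each, MYCL 4, MXD3 and MGA 3 each, MXD1 and MNT 2 each, and MYC 1. Of the 43 probe sets, 35 passed the filter on low values, and each of the 10 genes had at least 1 that did.

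MYC, MYCN and MYCL proteins bind DNA only as dimers with MAX and then mostly activate genes. The MXD proteins, MXI1, MNT and MGA also need MAX, occupy the same E-box sites as repressors, and so oppose MYC. MLX stands beside MAX in a parallel branch in which it pairs with the glucose-responsive factors MondoA (MLXIP) and ChREBP (MLXIPL) and with some MXD proteins and MNT. In neuroblastoma, a childhood tumour of the sympathetic lineage, amplification of MYCN is the classical marker of high risk.

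Total RNA of the established lines KELLY, NGP, BE(2)-C, SK-N-AS and SH-SY5Y was hybridised to 15 oligonucleotide arrays, 3 per line. The labels name no treatment. All lines were grown in DMEM with 10% FBS and counted before lysis, when ERCC spike-in RNA was added. The labels do not give MYCN status. By general knowledge of the lines, MYCN is amplified in KELLY, NGP and BE(2)-C and not in SH-SY5Y or SK-N-AS. Each group is 1 cell line, and the labels do not tie its arrays to separate cultures. A p-value over arrays therefore measures a spread that may be technical.

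The canonical E-box CACGTG, the site that MYC-MAX and MXD-MAX dimers bind, was searched in promoter windows from RefSeq (GRCh38.p14). A window ran from 250 bases before a gene's start to 50 after it, and 14 windows matched 9 members; MYC had none. The motif reads the same on both strands. It was found in 3 of the 14 windows, and so in 3 of 9 genes, against 7.26% of all 35116 windows and 8.77% of 27305 genes. Those 3 promoters are shown because they belong to members of the network itself, each as 100 bases that end before the start site, 5′ to 3′ on the gene's strand, with the E-box in capitals. The MXD4 stretch is chr4:2262260-2262359 on the minus strand, the MNT stretch chr17:2401201-2401300 on the minus strand and the MLX stretch chr17:42567000-42567099 on the plus strand.
MXD4: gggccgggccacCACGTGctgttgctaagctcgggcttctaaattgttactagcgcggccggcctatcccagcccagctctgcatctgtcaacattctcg
MNT: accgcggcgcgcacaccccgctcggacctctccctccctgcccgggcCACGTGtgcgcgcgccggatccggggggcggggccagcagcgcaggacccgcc
MLX: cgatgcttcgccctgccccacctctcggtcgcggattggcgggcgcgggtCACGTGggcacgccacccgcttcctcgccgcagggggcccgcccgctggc
The E-box began 238 bases before the start in MXD4, 193 in MNT and 50 in MLX. A match of letters is a description and not a measured binding site.

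Every comparison was made on both scales, deposited and centred, because the arrays differed in overall level. Per array, the median intensity of all probe sets lay between 51.9 and 126. The median of all 100 ERCC probe sets ran from 4.69 to 4.92 on the log2 scale, below the filter at 6.35. Only 33 ERCC probe sets passed the filter, so this low median cannot show whether the spike-in signal was level. The median tested gene was lowest in SH-SY5Y (7.54 ± 0.07), followed by KELLY (7.76 ± 0.04), NGP (8.06 ± 0.06), BE(2)-C (8.67 ± 0.04) and SK-N-AS (8.87 ± 0.06; log2, SD, n = 3 arrays). On the deposited scale a gene therefore tends to be higher in SK-N-AS and BE(2)-C, as most genes were. On the centred scale each array's median tested gene was set to 0. Of 8 sympathetic adrenergic markers measured, all 8 lay above the filter in 4 lines and 6 in SK-N-AS, where the granin genes CHGA (53.3) and CHGB (40.6) lay below it. Of 6 fibroblast and mesenchymal markers, 6 lay above the filter in SK-N-AS and in BE(2)-C, 4 in NGP and 2 in SH-SY5Y and in KELLY. Their summed intensity was 419.9 in KELLY, 6182 in BE(2)-C and 41554 in SK-N-AS. Their part in the differences below was not tested. In bulk RNA, fewer expressing cells and less RNA per cell cannot be told apart.

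A difference between lines was called where the limma p, adjusted by Benjamini-Hochberg over all genes of that pair, was under 0.05 and the lines lay at least 1 apart on the log2 scale. Over 10 genes and 10 pairs of lines, 35 of 100 differences were called on the deposited scale, where 37.7% of all gene-by-pair differences were called. On the centred scale 20 were called, where the background was 20.8%. Both counts lay near the background. MYC and MYCL gave 15 of the 35 calls and 12 of the 20. Only 13 calls held with the same sign on both scales, 22 were made on the deposited scale alone and 7 on the centred scale alone.

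**Figure D1:**
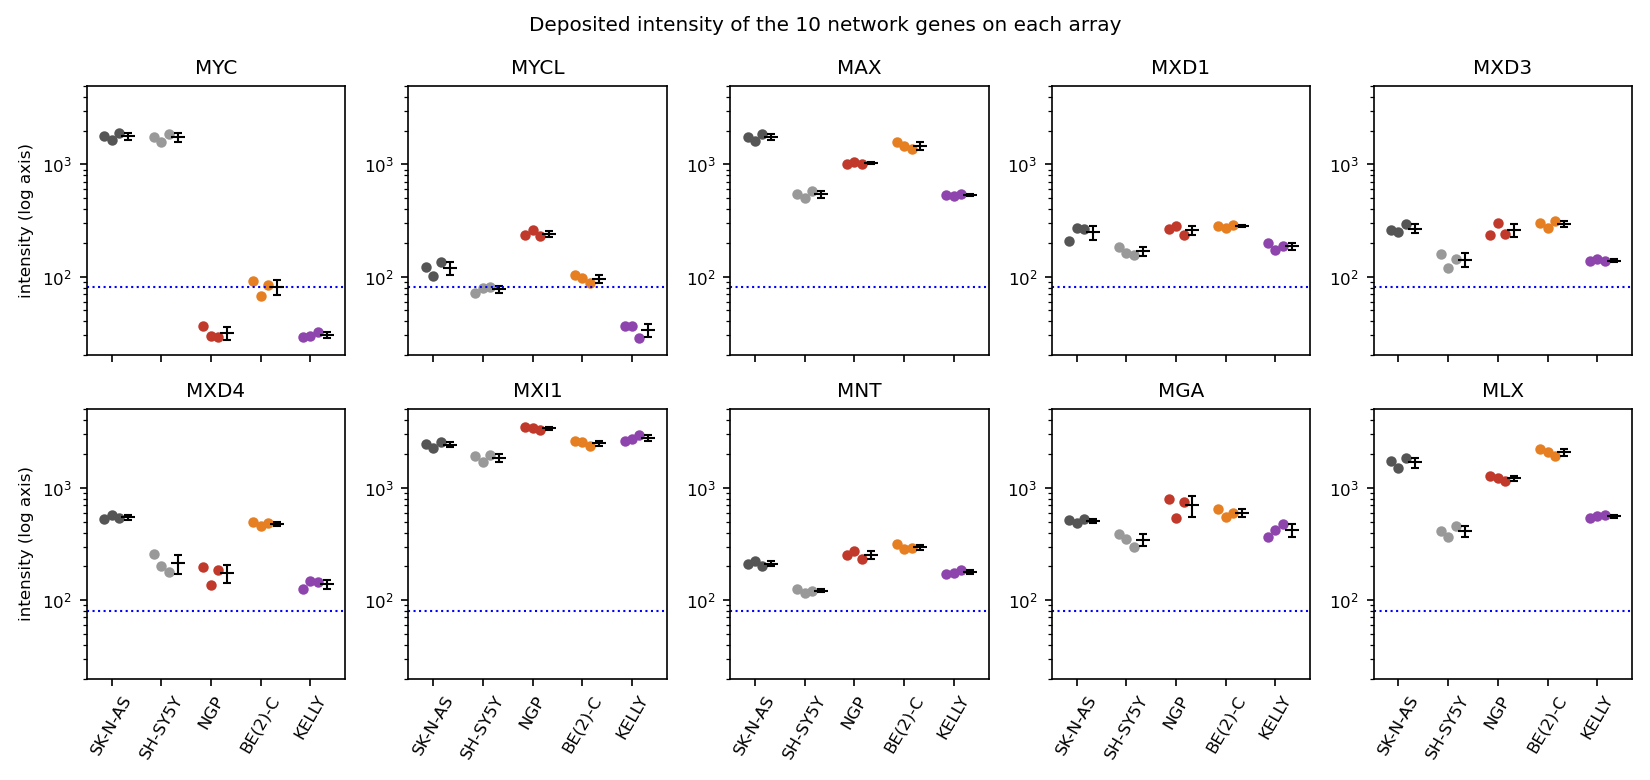
Deposited intensity (log axis) of the probe set used for each of the 10 genes. Points are single arrays, bars are the mean ± SD of 3 arrays, and the dotted line is the filter at an intensity of 80.6. MYC is at 1593 or more on all arrays of SK-N-AS and SH-SY5Y and at 92.1 or less on all others, and MYCL is highest in NGP.

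MYC, the founding activator of the family, divided the lines. Its intensities were 1786, 1661 and 1917 in SK-N-AS and 1763, 1593 and 1883 in SH-SY5Y. They were 36.2, 29.6 and 28.8 in NGP, 92.1, 67.2 and 83.9 in BE(2)-C and 28.9, 29.5 and 32.1 in KELLY. The lines without MYCN amplification were high on every array and did not overlap with the others, and NGP and KELLY lay below the filter throughout. MYCN, the check of the classes, ran the other way, with 9363 ± 163 or more in each amplified line, 152 ± 30.2 in SH-SY5Y and only 78.8 ± 6.3 in SK-N-AS.

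MYC was called lower in each of the 6 amplified-against-other contrasts, on both scales. That pattern was met by 0.346% of tested genes on the deposited scale and 0.558% on the centred scale. The smallest of the 6 differences was 4.42 (SE 0.11, a 21.4-fold gap) between SH-SY5Y and BE(2)-C on the deposited scale (limma, adjusted p = 2.53e-21). On the centred scale it was 4.26 (SE 0.10, 19.1-fold), between SK-N-AS and BE(2)-C (limma, adjusted p = 7.4e-17). The low levels lie near the background, where a log2 difference understates the change.

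Within each class the order of MYC depended on the scale. SK-N-AS and SH-SY5Y overlapped on the deposited scale and differed by 0.03 (SE 0.11; limma, adjusted p = 0.758). After centring, MYC in SH-SY5Y stood at 3.23 ± 0.06 and in SK-N-AS at 1.93 ± 0.05 (log2 above the median gene, SD, n = 3 arrays). That difference of 1.30 was called (limma, adjusted p = 1.24e-09), so that MYC was called higher in SH-SY5Y than in each of the other 4 lines, as 0.943% of tested genes were. Among the amplified lines, BE(2)-C lay above NGP by 1.33 and above KELLY by 1.38 on the deposited scale, both called. After centring these gaps were 0.71 and 0.47 and were not called, though the arrays still did not overlap.

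MYCL, the family member best known from small cell lung cancer, followed neither MYC nor MYCN. Its intensities were 236, 259 and 232 in NGP, 103, 96.7 and 87.7 in BE(2)-C, and 122, 102 and 135 in SK-N-AS. They were 71.7, 78.7 and 81.7 in SH-SY5Y and 36.1, 36.4 and 28.3 in KELLY. NGP was highest and KELLY lowest, with no overlap with any other line, and the amplified class held both extremes.

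MYCL was called higher in NGP than in all 4 other lines on both scales, a pattern of 1.67% of tested genes on the deposited and 1.86% on the centred scale. The second MYCL probe set that passed, 11737463_at, did not meet it on either scale: SK-N-AS minus NGP was -0.65 and NGP minus BE(2)-C 0.64 deposited, and SH-SY5Y minus NGP was -0.77 centred. The difference from KELLY was 2.82 (SE 0.12) on the deposited scale and 2.52 (SE 0.11) after centring, with KELLY below the filter, where a log2 difference understates the change. KELLY was called lower than all others on the deposited scale, as 1.74% of tested genes were, but not after centring, where it lay 0.57 below BE(2)-C. The difference between SK-N-AS and NGP was -1.02 on the deposited scale and fell under the fold threshold without the second array of SK-N-AS (-0.91) or of NGP (-0.97). On the centred scale it was -1.84. SK-N-AS and BE(2)-C overlapped on both scales.

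MAX, the shared partner of the network outside the MLX branch, had intensities of 1760.2, 1631 and 1850.5 in SK-N-AS and 1601, 1460.0 and 1359.7 in BE(2)-C. It had 1003, 1050.3 and 1019 in NGP, 548, 499.8 and 576 in SH-SY5Y, and 537, 526 and 541 in KELLY. SK-N-AS and BE(2)-C were high, NGP stood between, and SH-SY5Y and KELLY overlapped at the bottom. This is close to the order of the arrays' overall level.

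On the deposited scale MAX was called in 4 pairs, SK-N-AS and BE(2)-C each above SH-SY5Y and KELLY, by 1.44 to 1.70. After centring no pair was called, and the range over lines was 0.64 on the log2 scale in place of 1.70. Among the ranges of all tested genes these are the 22.4th and the 49.9th percentile. The centred level was 1.94 ± 0.05 in NGP, 1.90 ± 0.04 in SK-N-AS and 1.85 ± 0.08 in BE(2)-C, and then 1.54 ± 0.04 in SH-SY5Y and 1.31 ± 0.04 in KELLY. The first 3 overlapped, and KELLY lay below NGP, SK-N-AS, BE(2)-C and SH-SY5Y without overlap (limma, adjusted p = 0.000717 against its neighbour SH-SY5Y, for a difference of 0.23). That last step was not shared by most MAX probe sets: the centred difference between SH-SY5Y and KELLY ran from -0.27 to 0.07 in 6 of the other 8 that passed the filter.

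Among the MXD repressors, which rise as cells leave the cycle and differentiate, MXD1 varied least on the deposited scale. Its intensities were 284, 274 and 288 in BE(2)-C, 265, 283 and 236 in NGP, and 209, 271 and 264 in SK-N-AS. They were 199, 173 and 189 in KELLY and 185, 162 and 156 in SH-SY5Y. No pair was called on either scale. The range was 0.75 deposited and 0.89 centred, and after centring SK-N-AS was lowest at -0.92 ± 0.20 (log2, SD, n = 3 arrays).

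MXD3, the MXD gene linked to the S phase of dividing cells, had intensities of 300.3, 272 and 312 in BE(2)-C, 259, 251 and 296 in SK-N-AS and 237, 299 and 241 in NGP. It had 159.9, 120.0 and 145 in SH-SY5Y and 137, 143 and 137 in KELLY. The first 3 lines overlapped, as did the last pair, with a gap between these sets. BE(2)-C was called above SH-SY5Y by 1.06 and above KELLY by 1.08. The first call fell to 0.95 without the second array of SH-SY5Y. After centring no pair was called, and SH-SY5Y lay 0.07 above BE(2)-C, so the direction of that pair turned.

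MXD4 had intensities of 525, 574 and 538 in SK-N-AS and 494, 455 and 488 in BE(2)-C. It had 259, 200.3 and 179 in SH-SY5Y, 198, 136 and 186 in NGP and 125, 148 and 144 in KELLY. SK-N-AS and BE(2)-C lay apart from the other lines. All 6 pairs across that gap were called on the deposited scale, with differences from 1.18 to 1.97. After centring no pair was called: BE(2)-C, SK-N-AS and SH-SY5Y stood at 0.24 ± 0.06, 0.22 ± 0.11 and 0.19 ± 0.27, and NGP and KELLY at -0.63 ± 0.33 and -0.63 ± 0.10. The remaining gap of 0.81 between SH-SY5Y and NGP passed the p threshold (limma, adjusted p = 5.27e-05) and not the fold threshold.

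MXI1, the repressor also named MXD2, behaved in the opposite way to MXD4 between scales. Its intensities were 3458, 3432 and 3272 in NGP, 2611, 2723 and 2944 in KELLY and 2604, 2538 and 2343 in BE(2)-C. They were 2458, 2284 and 2540.0 in SK-N-AS and 1929.8, 1695 and 1956 in SH-SY5Y. NGP was above and SH-SY5Y below all others, but no pair reached the fold threshold, and the range of 0.87 lay at the 4.36th percentile of tested genes.

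After centring, MXI1 had more called pairs than any other MAX-binding repressor here. NGP (3.67 ± 0.03) and KELLY (3.67 ± 0.05) were level, SH-SY5Y followed at 3.32 ± 0.04, and BE(2)-C (2.61 ± 0.05) and SK-N-AS (2.37 ± 0.04) were low. NGP and KELLY each lay 1.30 above SK-N-AS (SE 0.05, 2.46-fold) and 1.06 above BE(2)-C (limma, adjusted p at most 1.14e-12 over these 4 pairs). The range of 1.30 was the 60.2nd percentile. SK-N-AS and BE(2)-C are also the lines with the highest array medians.

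MNT, a broadly expressed MAX-binding repressor, had intensities of 315, 284 and 290.5 in BE(2)-C, 254, 274 and 231 in NGP and 209, 222 and 202 in SK-N-AS. It had 172, 173 and 185 in KELLY and 124, 117 and 122 in SH-SY5Y. No neighbouring lines overlapped in this order. SH-SY5Y was called below BE(2)-C by 1.29 and below NGP by 1.05, and the latter gap fell to 0.99 without the second array of NGP. After centring the single called pair was SK-N-AS below NGP, by 1.07. In the other MNT probe set that passed, 11752262_a_at, that pair gave -0.22 centred and 0.66 deposited, and SH-SY5Y minus NGP gave -0.70 deposited, none of them called. The probe set used, 11744056_at, put all 3 amplified lines (-0.07 to -0.46) above both other lines (-0.61 and -1.14) after centring. The centred class difference was 0.61. In that set BE(2)-C lay 0.15 above SH-SY5Y after centring, which missed the threshold (limma, adjusted p = 0.0505). For the centred class difference the exact two-sided permutation test over the 5 lines gave p = 0.1, the smallest it allows. For the deposited class difference of 0.56 the exact two-sided permutation test gave p = 0.3.

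MGA, a large protein that carries both a MAX-binding and a T-box domain and scaffolds the repressive PRC1.6 complex, had intensities of 802, 535 and 754 in NGP and 646, 549.9 and 598 in BE(2)-C. It had 518, 484 and 524 in SK-N-AS, 367, 421 and 479 in KELLY and 385, 353 and 299 in SH-SY5Y. NGP overlapped BE(2)-C, and KELLY overlapped SH-SY5Y. No pair was called on the deposited scale. After centring SK-N-AS (0.12 ± 0.04) was called below NGP (1.37 ± 0.36), a difference of 1.25 (SE 0.14; limma, adjusted p = 1.87e-07).

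MLX, the partner of MondoA and ChREBP, had intensities of 2221, 2091 and 1925 in BE(2)-C, 1719, 1504 and 1837 in SK-N-AS and 1288, 1226 and 1161 in NGP. It had 538, 556 and 578 in KELLY and 416, 363 and 459.7 in SH-SY5Y. No neighbouring lines overlapped. The gap between BE(2)-C and SH-SY5Y was 2.33 (SE 0.09, 5.04-fold), and 6 pairs were called on the deposited scale. After centring SH-SY5Y remained called below BE(2)-C by 1.20 (2.3-fold) and below NGP by 1.05 (limma, adjusted p = 1.77e-11 and 9.81e-11). Over the 6 MLX probe sets, 8 of the 12 centred differences in these 2 pairs were called. Most of the misses were against NGP. KELLY, next to SH-SY5Y on both scales, lay 0.98 below BE(2)-C, just short of the fold threshold.

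MLXIP, which encodes MondoA, was singled out with MLXIPL after their values were seen. It stood at 4976 ± 202 in NGP, at 2055 ± 103 in SK-N-AS and 921 ± 32.2 in BE(2)-C, and at 409 ± 25.1 in KELLY and 341 ± 48.4 in SH-SY5Y (intensity, SD, n = 3 arrays). NGP was called above each other line on both scales, by 1.28 to 3.87 on the deposited and by 2.09 to 3.36 on the centred scale. MLXIPL, which encodes ChREBP, ran from 71.6 ± 18.5 in SH-SY5Y to 175 ± 24.3 in SK-N-AS. In NGP the level of MLX itself was the second highest of the 5 lines after centring.

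**Figure D2:**
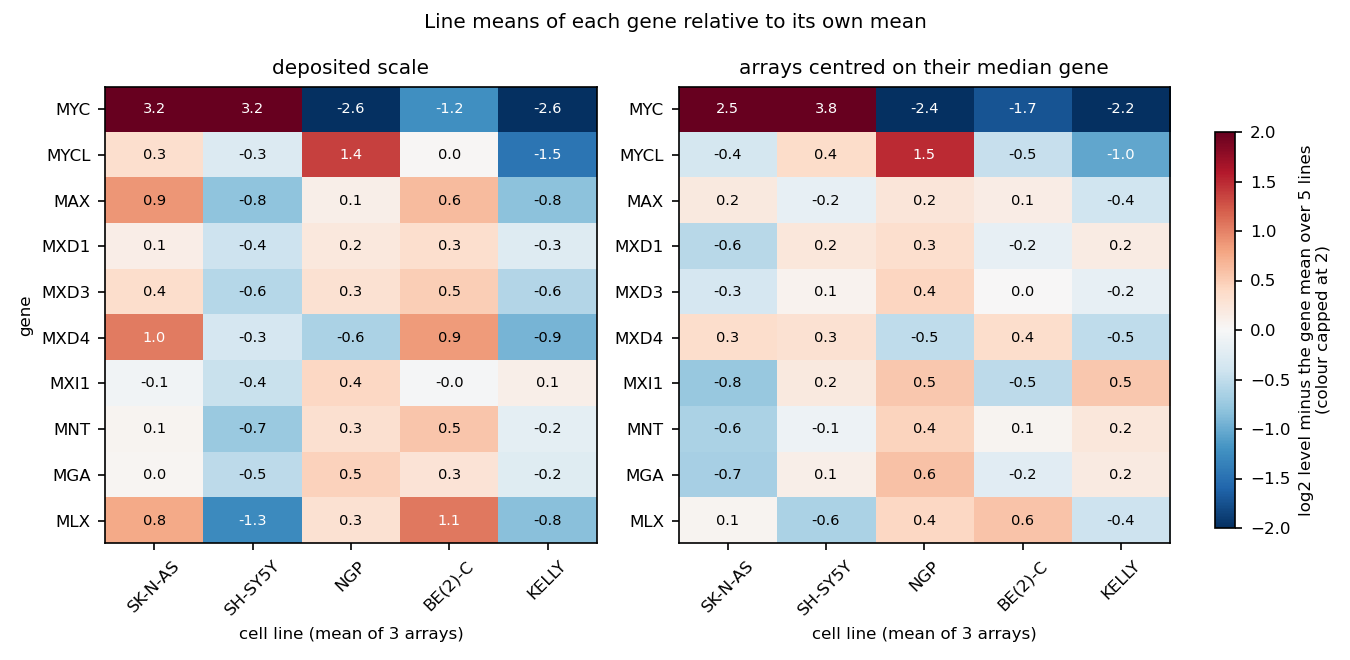
Mean log2 level of each gene in each line minus the gene's mean over the 5 lines, on the deposited scale (left) and with every array's median tested gene set to 0 (right). Cells give the value, and the colour is capped at 2. The MAX range of 1.70 narrows to 0.64 after centring, whereas MXI1 widens from 0.87 to 1.30 and MYC keeps the split between the classes.

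Of the 10 genes, only MYC separated the amplified lines from the others, on either scale, and it was lower. None was higher in all 6 contrasts, as 0.684% of tested genes were on the deposited and 0.558% on the centred scale. Its class difference, amplified minus other lines, was -5.34 deposited and -5.30 centred. In the limma fit on 5 line means, where a line is the replicate, MYC passed on the deposited scale (SE 0.79; adjusted p = 9.89e-06). This fit called 0.134% of tested genes lower. Its prior for the spread, taken from all tested genes, had 69.8 degrees of freedom deposited and 2.24 centred. The deposited p therefore rests mostly on that prior and not on the 5 lines alone. On the centred scale MYC did not pass (SE 0.48; limma, adjusted p = 0.163), and 0 of all tested genes did, with 786 at an unadjusted p under 0.05. The exact two-sided permutation test over lines gave p = 0.1 for MYC on both scales, the smallest possible. The other members' class differences ran from -0.59 for MXD4 to 0.56 for MNT on the deposited scale and from -0.54 to 0.61, for the same genes, after centring. The median over the 10 genes was 0.21 deposited and 0.25 centred, against 0.00 and 0.05 over all tested genes.

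**Figure D3:**
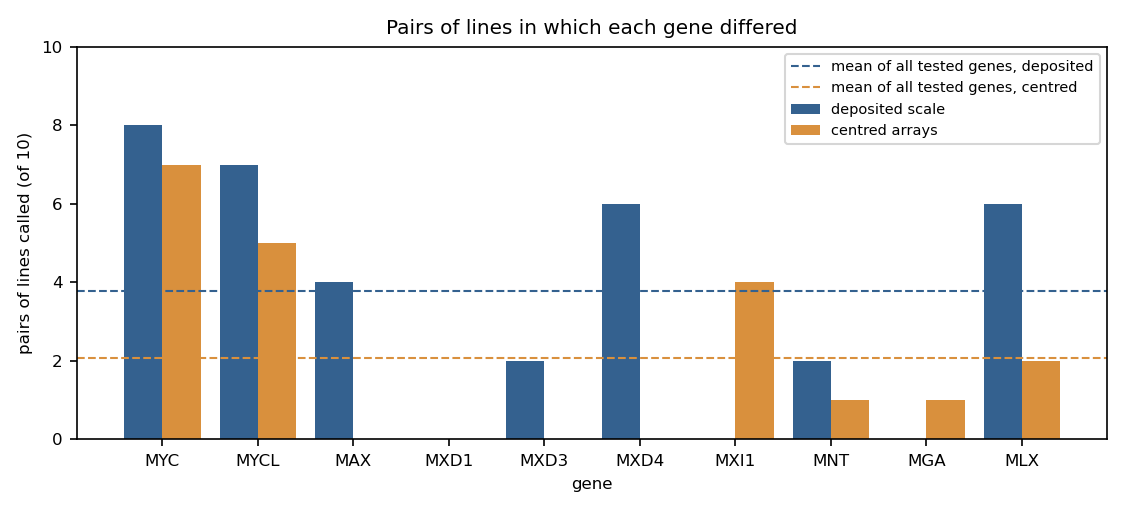
Number of the 10 pairs of lines in which each gene was called, on the deposited scale (blue) and on centred arrays (orange). Dashed lines give the mean over all tested genes, which corresponds to 37.7% and 20.8% of pairs. MXD4 goes from 6 pairs to 0 and MAX from 4 to 0, and MXI1 goes from 0 to 4.

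By pair of lines, the members' counts are given with the share of all tested genes called in the same pair. Between SK-N-AS and SH-SY5Y, 3 members were called deposited (background 68.5%), MAX, MXD4 and MLX, and only MYC centred (25.9%). Between SK-N-AS and NGP, 3 were called deposited (43.9%) and 5 centred (30.1%), with MYCL, MXI1, MNT and MGA lower in SK-N-AS and MYC higher. Between SK-N-AS and BE(2)-C, MYC alone was called, both deposited (25.6%) and centred (25.1%). These lines have the highest array medians, and the other 9 genes were not called there on either scale.

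SK-N-AS and KELLY differed in 5 members deposited (54.4%), all higher in SK-N-AS, and in 2 centred (29.1%), MYC and MXI1 in opposite directions. SH-SY5Y and NGP differed in 4 deposited (23.0%) and 3 centred (16.2%): MYC higher in SH-SY5Y, MYCL and MLX lower, on both scales. For SH-SY5Y and BE(2)-C, 6 were called deposited (56.1%) and 2 centred (16.5%), MYC and MLX. SH-SY5Y and KELLY differed in MYC and MYCL on both scales (15.7% deposited, 14.9% centred), each higher in SH-SY5Y.

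Among the amplified lines, NGP and BE(2)-C differed in 3 members deposited (31.4%) and in 2 centred (19.3%), MYCL and MXI1, both higher in NGP. NGP and KELLY differed in MYCL and MLX deposited (16.1%) and in MYCL centred (14.1%). BE(2)-C and KELLY differed in 6 deposited (42.5%), all higher in BE(2)-C, and in 1 centred (17.4%), MXI1, which was lower in BE(2)-C.

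**Figure D4:**
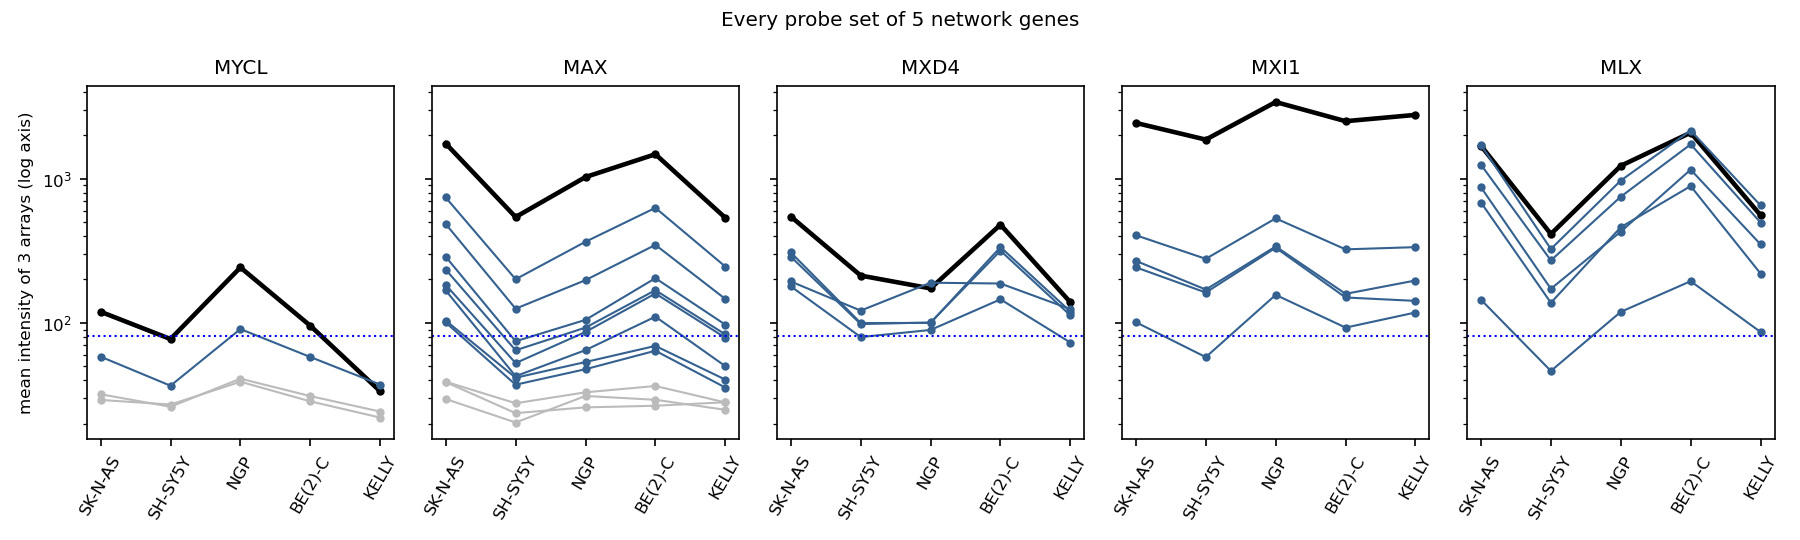
Mean intensity of 3 arrays (log axis) in each line for every probe set of 5 genes. The black line is the probe set used for the gene, blue lines are other probe sets that passed the filter, grey lines did not pass, and the dotted line is the filter at 80.6. 1 MXD4 probe set is as high in NGP (190.0) as in BE(2)-C (188).

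The probe sets of a gene were compared because they can read different transcripts, and 10 of the 43 are of a type that can match related sequences. Over the 35 probe sets that passed the filter, 127 of 350 differences were called deposited, where 37.2% of all were. In the probe set fit on centred arrays, 48 were called, where 19.3% were. No called difference of a gene was called with the opposite sign by another of its probe sets, on either scale. In the pairs called for a gene on the deposited scale, the share of its probe set differences called with the same sign was 32 of 36 for MAX, 31 of 36 for MLX, 20 of 30 for MXD4, 9 of 14 for MYCL, 3 of 4 for MNT and 2 of 4 for MXD3. On centred arrays it was 14 of 20 for MXI1, 8 of 12 for MLX, 8 of 10 for MYCL, 2 of 2 for MGA and 1 of 2 for MNT. These counts include the probe set used. Of 97 differences from other probe sets in the gene's deposited calls, 70 were called, 25 missed the threshold and 2 turned.

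Several genes had probe sets that departed from the one used. In MAX, SK-N-AS minus NGP was 0.77 in the set used and not called, whereas 7 other sets were called there, with values up to 1.44. In MLX, NGP minus BE(2)-C was -0.76 in the set used and -1.42 in 11735096_a_at. In MXD4, 4 of 5 probe sets were low in NGP. The fifth, 11763312_at, gave 199.7, 203 and 167 in NGP, 186, 194 and 182 in BE(2)-C and 191, 185 and 205 in SK-N-AS, which overlap. It gave 0.01 for NGP minus BE(2)-C on the deposited scale, where 11754299_a_at gave -1.74 and 11736489_a_at -1.64. The last 2 were also called in this pair after centring, at -1.12 and -1.02.

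In MXI1, all 5 probe sets were called higher in NGP than in BE(2)-C and SK-N-AS after centring. They differed on KELLY. The probe set used, 11730498_s_at, put KELLY above SK-N-AS by 0.18 on the deposited scale, whereas 11739743_a_at put it below by 0.77. That set gave 126, 161 and 139.7 in KELLY and 211, 237 and 279.9 in SK-N-AS, with no overlap. After centring its difference was -0.34 (SK-N-AS minus KELLY), against -1.29 for the probe set used, and 2 of the 5 probe sets were called in this pair.

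For MYCL, 11737463_at gave 87.5, 91.8 and 93.0 in NGP, above every other array, whereas KELLY (37.4 ± 3.09) and SH-SY5Y (36.8 ± 3.43) overlapped. The other 2 MYCL probe sets did not pass the filter and were also highest in NGP (41.1 ± 3.1 and 39.2 ± 2.95). The low level in KELLY relative to SH-SY5Y was therefore seen in 1 of the 2 MYCL probe sets tested. For MGA, 11758283_s_at gave 439.6, 464 and 486 in SK-N-AS and was higher in NGP at 784, 655 and 756. It gave 603, 519 and 532 in BE(2)-C, which did not overlap NGP. Unlike the set used, it was called for SH-SY5Y minus NGP on the deposited scale (-1.09) and for NGP minus BE(2)-C after centring (1.03).

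The wider pathway was followed in 6 lists of genes. Of 3 further dimer partners tested, MYCN separated the classes upward on both scales, and MLXIP and MLXIPL did not separate them. None of the other 59 list genes tested did so in either direction on either scale. Of all tested genes, 0.684% separated the classes upward and 0.346% downward deposited, and 0.558% each way centred. Counts of 0 in lists of this size lie near that share. The genes named below from each list are those with the widest range over lines on the deposited scale, which carries the arrays' overall level. Their values are given on that scale. Centred, the ranges were 0.69 for TFDP1, 0.87 for HDAC1, 0.96 for TRIM32, 1.04 for L3MBTL2 and 1.12 for WDR5. They were 1.39 for ACACA, 2.09 for CDKN1A, 2.10 for PPP2R5A, 3.33 for PFKFB3 and 4.18 for LDHA. The median over all tested genes was 1.08. Some genes passed over ranged wider than named ones after centring. HDAC2, at 2.01, ranged wider than HDAC1 and WDR5, and ODC1, at 2.12, wider than CDKN1A. ARRDC4 (2.05) and TXNIP (1.75) ranged wider than ACACA, E2F6 (1.19) than L3MBTL2 and TFDP1, and CIP2A (1.13) than TRIM32.

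Of 16 coactivators and corepressors, 0 separated the classes, with a median class difference of -0.12 deposited and -0.07 centred. HDAC1, a histone deacetylase recruited by MXD proteins through SIN3, ran from 726 ± 96.2 in SH-SY5Y to 3333 ± 99.5 in SK-N-AS. WDR5, a chromatin cofactor of MYC, ran from 461 ± 9.66 in KELLY to 1808 ± 167 in BE(2)-C. Of 13 genes of MYC protein turnover, 0 separated them, with medians of 0.19 and 0.23. PPP2R5A, a regulatory subunit of the phosphatase PP2A, was 749 ± 35.0 in SK-N-AS and 515 ± 31.4 in BE(2)-C and 135 ± 16.3 or less elsewhere, and the ubiquitin ligase TRIM32 ran from 181 ± 11.3 in KELLY to 766 ± 73.2 in SK-N-AS.

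Of 8 genes of the MGA and PRC1.6 complex, 0 separated the classes, with medians of 0.05 and 0.10. L3MBTL2, a subunit that reads methylated histones, was highest in BE(2)-C (393 ± 15.7) and lowest in SH-SY5Y (98.8 ± 8.93). TFDP1, the dimer partner of E2F6, ran from 1219 ± 31.7 in KELLY to 4272 ± 243 in SK-N-AS.

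Of 15 often-cited MYC targets, 0 separated the classes, with medians of 0.22 deposited and 0.26 centred. LDHA, lactate dehydrogenase A, stood at 933 ± 19.5 in BE(2)-C against 5589 ± 286 in SH-SY5Y, 6502 ± 317 in KELLY, 8173 ± 511 in NGP and 19531 ± 1068 in SK-N-AS. CDKN1A, the cell cycle inhibitor p21 and a gene that MYC represses, stood at 222 ± 24.5 in SH-SY5Y and between 1103 ± 38.3 and 1387 ± 69.6 in the other lines.

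Of 7 MondoA and MLX targets, 0 separated the classes, with medians of 0.14 and 0.18. ACACA, which makes malonyl-CoA for fatty acid synthesis, ran from 434 ± 32.4 in SH-SY5Y to 2215 ± 36.5 in BE(2)-C. PFKFB3, an activator of glycolysis, ran from 71.1 ± 3.84 in KELLY to 1569 ± 143 in SK-N-AS.

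MYC and MYCL, whose centred line means spanned at least 2 on the log2 scale, were set against every tested gene by the root mean square difference of their 5 centred line means. For MYC the nearest 3 genes were XIST, a noncoding RNA (0.39), the focal adhesion gene TES (0.55) and the mitochondrial gene DNAJC15 (0.67). XIST, the closest, shared the class split of MYC. SK-N-AS reached 2630 ± 233 and SH-SY5Y 1997 ± 219, whereas no amplified line exceeded 51.0 ± 6.74. Over these 5 lines the MYCN classes thus coincide with high or low XIST, and the part of XIST status in the split was not tested. TES was at 44.6 ± 6.08 or less in the amplified lines, with SH-SY5Y at 1048 ± 51.6 and SK-N-AS at 1873 ± 74.5. DNAJC15 gave 464 ± 21.9 for SK-N-AS, 453 ± 33.9 for SH-SY5Y and 24.6 ± 2.92 or less for the amplified lines. For MYCL the nearest were DDAH1 (0.19), which breaks down methylated arginines, PDLIM3 (0.19) and RNF130 (0.27). DDAH1 was highest in NGP (2435 ± 115) and lowest in KELLY (359.7 ± 6.21), as was PDLIM3 (204 ± 20.3 and 30.1 ± 1.37). These are likenesses over 5 lines and carry no test.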

How the data were processed

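The values are the deposited intensity of each probe set on each array, on a linear scale, made by the authors with MAS5, per the submitters' processing notes; its version, scaling and build: not given in the sources used here. Of 49494 probe sets, 45277 named 1 gene, 1333 several, 2682 none, and 202 were controls. The brightest probe set stood for a gene. Genes entered the fit when their highest line mean reached an intensity of 80.6 (6.35 on the log2 scale), which left 12721 genes and 29563 probe sets. log2(intensity + 1) was fitted with limma 3.58.1 (R 4.3.3, lmFit and eBayes with an intensity trend, 1 mean per line, 10 contrasts), and p-values were adjusted by Benjamini-Hochberg over all features of a contrast. The fit was tested on simulated data. Correlations were at least 0.990 between arrays of the same line and at most 0.901 between lines, and 0 pairs were identical. The number of arrays limits the precision.

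The members and lists were chosen with earlier results of these data known. Named were all members and the 2 genes of each list with the largest class difference or range on the deposited scale. Also named were the 3 genes most like a member with a centred range of at least 2. Alternatives were other pseudocounts, filters, scalings, probe set choices, a replicate block and each array left out.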

Additional observations from a re-analysis of the deposited data

How the results depend on the processing

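The scale decided most counts. The count of member calls was 35 on the deposited scale, 20 on centred arrays and 22 after quantile normalization. With equal ERCC medians, which shift the deposited values and involve no centring, it was 31. With each gene's probe sets averaged, where MYCL did not pass the filter, the centred count was 12. Calls over probe sets went from 127 to 48 centred, 50 with quantile normalization and 79 under the stricter filter, which tests fewer probe sets. The line-mean call of MYC became 0 calls centred and 0 with quantile normalization. The cause of these shifts was not tested. Of 35 called differences, 13 kept direction and threshold when centred, 21 lost the threshold and 1 turned; with quantile normalization these were 15, 19 and 1. A pseudocount of 16 and equal ERCC medians each lost 4, and no filter, no intensity trend and leaving out _s_at and _x_at probe sets lost 0. The direction turned for MXD3 in SH-SY5Y minus BE(2)-C (0.073 centred, 0.030 quantile), for MYCL in SH-SY5Y minus KELLY with 11737463_at (-0.026) and for MXD4 in NGP minus BE(2)-C with 11763312_at (0.013).

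Leaving out each array gave 34 to 37 member calls, 19 to 21 centred and 122 to 130 over probe sets, with 1 member on line means, 1 separating member and 1 separating list gene throughout, and 4 of 525 called differences lost the threshold. With the replicate number as a block the counts were 35 deposited, 20 centred, 127 over probe sets and 1 separating member, and 0 of the 35 deposited calls were lost. The numbers are not a pairing: 5 of 30 same-numbered pairs of arrays deviated together above 0.1, with a median correlation of -0.03.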

Other observations

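Single arrays of NGP and SH-SY5Y stood low in some probe sets of MXI1, MGA and MXD4. In MXI1, 11739743_a_at gave 378, 221 and 396 on the NGP arrays and 184, 202 and 102 on those of SH-SY5Y. In MGA, 11743706_a_at gave 802, 535 and 754 in NGP and 385, 353 and 299 in SH-SY5Y. In MXD4, the probe set used, 11747171_a_at, gave 198, 136 and 186 in NGP and 259, 200.3 and 179 in SH-SY5Y. Centred, its NGP arrays stood at -0.42, -1.01 and -0.45. The second NGP array and the third SH-SY5Y array were the low ones each time. The probe set used for MXI1, 11730498_s_at, gave 3458, 3432 and 3272 in NGP and 1929.8, 1695 and 1956 in SH-SY5Y, where those arrays did not stand apart.

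In SK-N-AS, 1 of 3 leukocyte and 1 of 3 epithelial markers lay above the filter. These were PTPRC at 320.0 and KRT18 at 8602, against at most 14.7 and 58.1 in the other lines. The others lay below it in SK-N-AS, CD3E at 48.1, CD14 at 49.7, EPCAM at 16.8 and CDH1 at 34.5. In BE(2)-C, 2 of 2 Schwann cell markers (SOX10 at 106, S100B at 269) lay above the filter. So did 2 of 2 endothelial markers there (PECAM1 at 105, CDH5 at 231). SOX10 also lay above it in SK-N-AS (138) and NGP (92.1), and PECAM1 in SK-N-AS (92.5). The filter is a fixed deposited intensity, and the array medians averaged 103 in BE(2)-C and 123 in SK-N-AS. They averaged 76.8 or less in the other lines, so a marker reaches the filter more easily in BE(2)-C and SK-N-AS.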
